A study of Mus musculus with 2 samples.

Results

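The genes described are the nucleus-encoded subunits of the 5 complexes of oxidative phosphorylation, with cytochrome c. They were taken by symbol from the platform's probe annotation, using the symbol families of complex I (Nduf), complex II (Sdh), complex III (Uqcr and Cyc1), complex IV (Cox) and complex V (Atp5), and Cycs. The annotation gave 22184 genes by single-symbol probe sets, and 79 of them matched. Their RNA was measured in Ly6C-hi monocytes of the colon lamina propria, in wild-type (WT) and in Nlrp6-/- mice, Nlrp6 being a gene of the NOD-like receptors that form inflammasomes. All mice carried the C57BL/6 background in the labels. All had been injected with 10 mg/kg of the carcinogen azoxymethane (AOM) and had then received 2% dextran sodium sulfate (DSS), an agent that damages the gut lining, for 5 days beginning on day 5. Cells were taken on day 10. The sort kept CD11b+ cells with high Ly6C and removed cells with CD3, a T cell antigen, or Ly6G, a neutrophil antigen. The labels give neither the age of the mice nor how many gave each RNA.

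The data are 1 array per genotype, of the type Affymetrix Mouse Gene 2.1 ST. There was therefore no spread between replicates and no test, and each difference below describes these 2 arrays. Levels are log2 values after robust multiarray averaging by the authors, and each difference is Nlrp6-/- minus WT on that log2 scale. A probe set counted as detected above a floor, set from probe sets of olfactory and vomeronasal receptors at their 95th percentile and lying at 3.26 in WT and 3.22 in Nlrp6-/-. The differences of the 1374 receptor genes, which colon monocytes are not known to use, had an SD of 0.19. The Nlrp6 probe set had a level of 2.32 in WT and of 2.67 in Nlrp6-/-, below the floor on both arrays, so it gave no check of the genotypes. The labelled cell type was checked with Ly6c2, at 9.06 and 9.36, by Itgam, which encodes CD11b, at 8.46 and 8.25, and by the receptor gene Csf1r, at 9.40 and 9.28. Cd3e, which marks T cells, was at 4.21 and 3.98, above the floor on both arrays. Ly6g, the gene of the neutrophil antigen that the sort removed, was at 3.32 and 3.58, also above both floors.

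Oxidative phosphorylation makes most of the ATP of resting cells. Complexes I and II pass electrons from NADH and succinate to ubiquinone, complex III passes them to cytochrome c, and complex IV passes them to oxygen. Complexes I, III and IV pump protons across the inner mitochondrial membrane, and complex V, the ATP synthase, uses their return to make ATP. Except for complex II, each complex joins nuclear subunits to subunits encoded in mitochondrial DNA. Inflammatory activation of monocytes and macrophages is known to move their energy metabolism between glycolysis and respiration. No probe set carried the symbol of a subunit encoded in mitochondrial DNA, so only nuclear transcripts are described.

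Of the 79 members, 71 were above the floor on both arrays and 2 on 1 array only, which left 73 measured. The 6 others were below the floor on both arrays. Of the 73, 56 were higher in Nlrp6-/- by any amount, where 50.7% of the 9535 measured genes were. The smallest threshold used below is a difference of 0.3219 on the log2 scale, written as 0.32, and 0.58 corresponds to 1.5-fold. In the higher direction 35 members reached 0.32, against a background of 16.9%. In the lower direction 1 member, Atp5l, did, against 13.2%. At 1.5-fold there were 11 higher members, against 6.21%, and 0 lower members, against 3.05%. No member reached 2-fold in either direction, where the background was 1.62% higher and 0.325% lower. The median difference over the 73 members was 0.31, or 0.30 with the 2 members above the floor on 1 array set to their bounds, and over all measured genes it was 0.01 or 0.00.

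**Figure D1:**
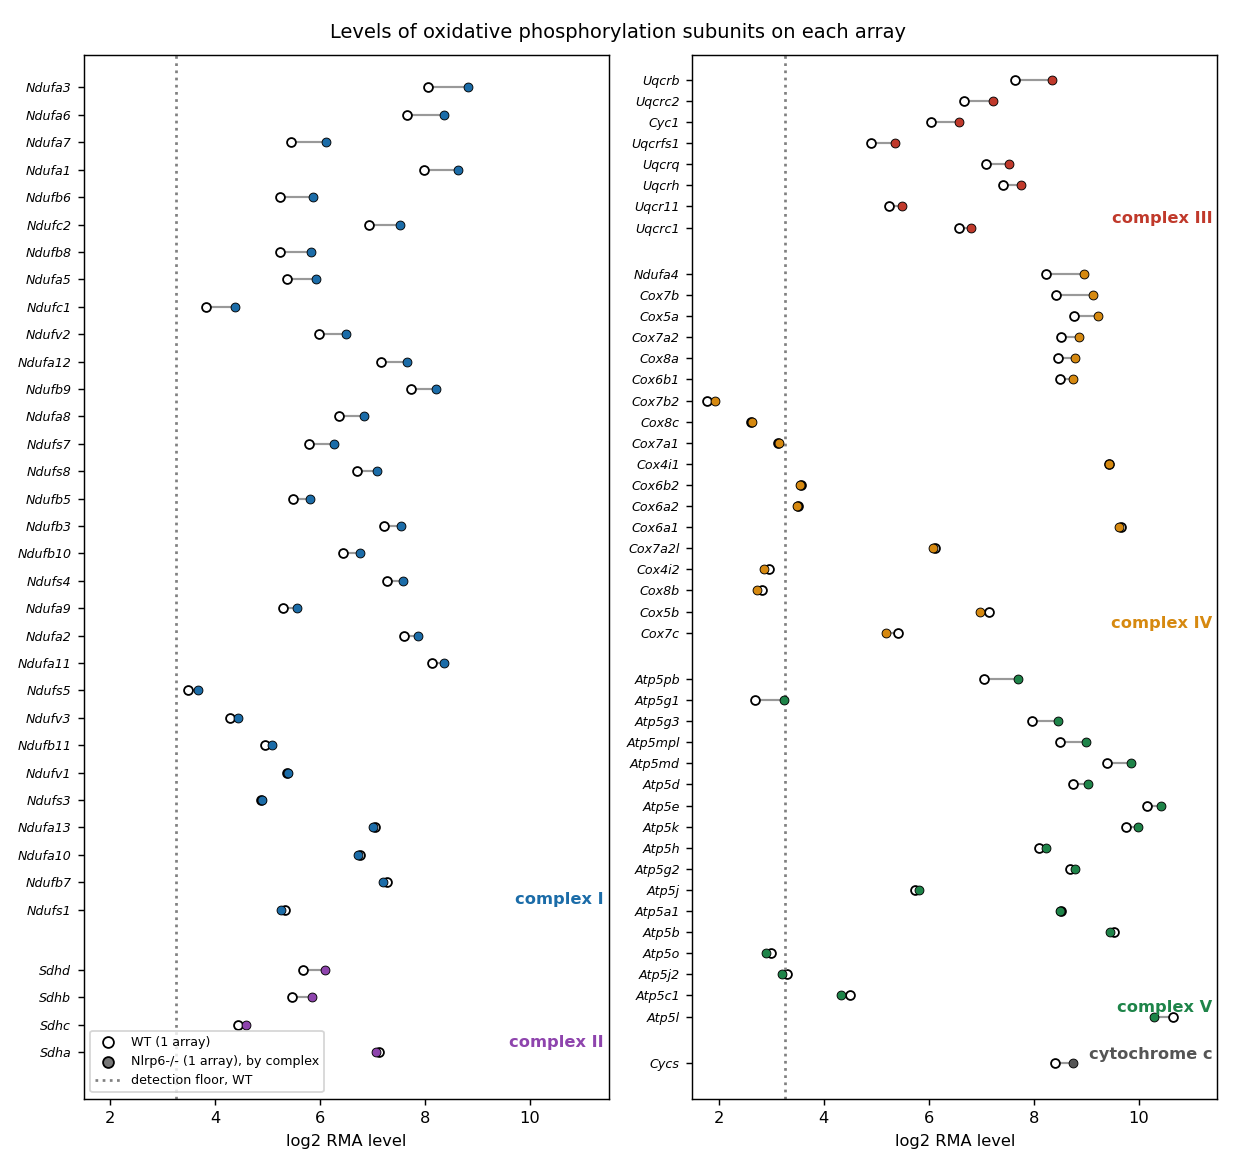
Log2 RMA level (horizontal axis) of each of the 79 members on the WT array (open circles) and on the Nlrp6-/- array (filled circles, coloured by complex), joined by a line. The dotted line is the WT detection floor of 3.26. Most complex I and all 8 complex III subunits lie to the right in Nlrp6-/-, whereas complex IV and complex V hold members on both sides.

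**Figure D2:**
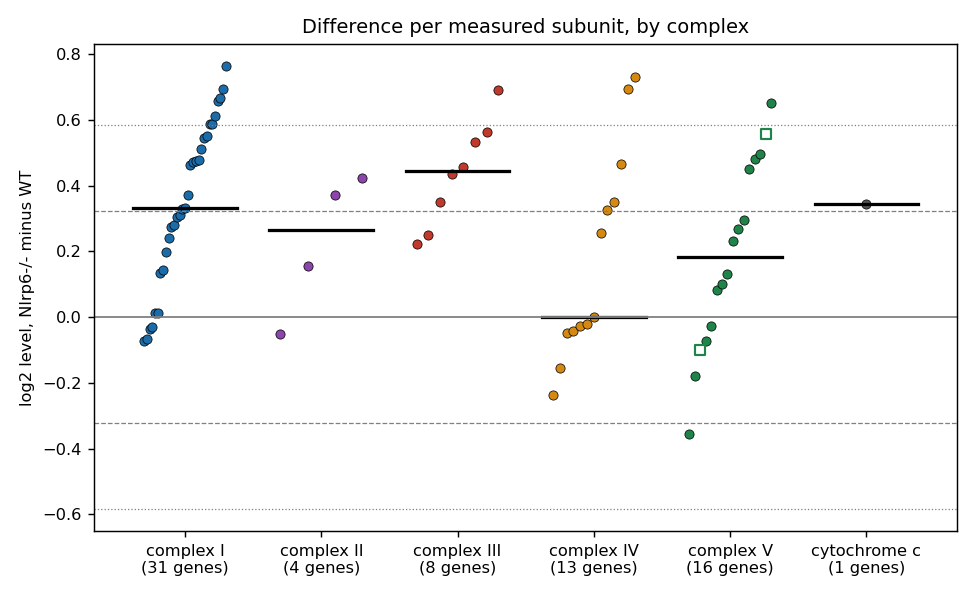
Difference of the log2 level, Nlrp6-/- minus WT, for each of the 73 measured members, by complex. Each filled point is 1 gene, the 2 open squares are Atp5g1 and Atp5j2, which were above the floor on 1 array only, and bars are medians. Dashed lines mark 0.32 and dotted lines 1.5-fold. The medians are 0.33, 0.26, 0.45, 0.00 and 0.18 for complexes I to V.

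The regions before the transcription starts of the members furthest apart in difference are shown for comparison. They belong to the 4 highest and the 3 lowest members that were above both floors and had an entry in the RefSeq promoter table. Each run holds the 250 bases before the annotated start in mouse assembly GRCm38.p6, 5′ to 3′ on the gene's strand. Capitals mark matches, on either strand, to the motifs described after the sequences.
Ndufa3, chr7:3617123-3617372, plus strand: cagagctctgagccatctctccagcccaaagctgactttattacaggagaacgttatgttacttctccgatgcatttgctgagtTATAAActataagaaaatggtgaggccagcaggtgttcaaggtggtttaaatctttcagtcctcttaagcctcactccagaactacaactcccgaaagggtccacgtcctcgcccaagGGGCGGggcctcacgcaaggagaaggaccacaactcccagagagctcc
Ndufa4, chr6:11907451-11907700, minus strand: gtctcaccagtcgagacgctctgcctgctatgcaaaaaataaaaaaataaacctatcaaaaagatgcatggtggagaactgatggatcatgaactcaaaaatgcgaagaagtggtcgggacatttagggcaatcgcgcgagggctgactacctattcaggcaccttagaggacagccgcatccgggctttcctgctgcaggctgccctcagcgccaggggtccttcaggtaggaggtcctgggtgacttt
Cox7b, chrX:106015450-106015699, plus strand: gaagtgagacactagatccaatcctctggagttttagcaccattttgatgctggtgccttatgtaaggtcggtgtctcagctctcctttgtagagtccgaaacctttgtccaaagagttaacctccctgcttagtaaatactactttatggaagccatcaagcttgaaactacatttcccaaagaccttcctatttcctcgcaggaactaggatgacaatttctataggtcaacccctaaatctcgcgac
Ndufa6, chr15:82354292-82354541, minus strand: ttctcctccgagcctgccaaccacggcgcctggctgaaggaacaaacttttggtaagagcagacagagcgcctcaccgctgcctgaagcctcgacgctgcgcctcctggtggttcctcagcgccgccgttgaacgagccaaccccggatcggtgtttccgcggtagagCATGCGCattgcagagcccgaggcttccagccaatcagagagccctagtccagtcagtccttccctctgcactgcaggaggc
Atp5c1, chr2:10080511-10080760, minus strand: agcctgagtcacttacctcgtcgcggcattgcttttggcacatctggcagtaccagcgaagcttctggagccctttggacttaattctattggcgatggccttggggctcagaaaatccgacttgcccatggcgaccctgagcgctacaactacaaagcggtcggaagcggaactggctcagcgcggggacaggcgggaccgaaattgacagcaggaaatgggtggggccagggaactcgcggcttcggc
Cox7c, chr13:86046796-86047045, minus strand: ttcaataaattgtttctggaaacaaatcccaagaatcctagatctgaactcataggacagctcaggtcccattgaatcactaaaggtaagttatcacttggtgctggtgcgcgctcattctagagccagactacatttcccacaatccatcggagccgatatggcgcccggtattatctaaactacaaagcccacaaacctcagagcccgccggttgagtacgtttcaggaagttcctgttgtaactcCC
Atp5l, chr9:44920743-44920992, minus strand: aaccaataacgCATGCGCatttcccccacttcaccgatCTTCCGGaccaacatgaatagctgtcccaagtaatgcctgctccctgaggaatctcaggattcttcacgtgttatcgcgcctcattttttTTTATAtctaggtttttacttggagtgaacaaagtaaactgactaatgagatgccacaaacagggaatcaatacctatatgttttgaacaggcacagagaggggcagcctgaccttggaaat

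Motifs were searched on both strands in windows of 300 bases, the 250 above and the next 50, for the 65 members that the table held. Nuclear respiratory factor 1 (NRF1) and GA-binding protein (GABP, an ETS family factor) are known activators of many respiratory chain genes. The NRF1 motif GCGCATG, the first letters of its palindromic site, was in 14 of the 65 genes, 21.5%, and in 5.39% of 17491 protein-coding genes in the table. The ETS motif CCGGAAG was in 17 of 65, 26.2%, and in 12.9% of the protein-coding genes. The motif of YY1, another factor found at such promoters, written AAGATGG, was in 10 of 65, 15.4%, and in 7.18%. The SP1 motif GGGCGG was in 43.1% of members and in 49.2% of the protein-coding genes, and TATAAA was in 12.3% and 14.8%. The ETS and YY1 motifs can overlap by the letters AAG, and none of the 5 contains another. The NRF1 and YY1 letters were shortened after counts with longer letters had been seen, and those counts differed, so both shares hold for the letters given here alone. A match is a description of the sequence only.

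Among the 29 members in the table that were higher by at least 0.32, 6 held the NRF1 motif, 7 the ETS motif and 5 the YY1 motif. Among the 32 other measured members, whose differences ran up to that threshold and included that of Atp5l, the counts were 8, 10 and 5. For SP1 they were 16 of 29 and 11 of 32. Ndufa6 held an NRF1 match before the start and an SP1 match after it. Ndufa3 held an SP1 and a TATAAA match before the start and a YY1 match after it. Cox7c held a YY1 match across the start, of which only the first letters are printed. Atp5l, the lowest member, held an NRF1, an ETS and a TATAAA match before the start and another ETS match after it. Matches after the start lie outside the runs printed. Ndufa4, Cox7b and Atp5c1 held none of the 5 motifs.

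Complex I, the NADH dehydrogenase, had 31 members, and all were above both floors. Of these 27 were higher in Nlrp6-/- by any amount, 87.1% against 50.7% of all measured genes. Of the 31, 17 were higher by at least 0.32 and 7 by at least 1.5-fold, 54.8% and 22.6% against 16.9% and 6.21%. The median difference was 0.33, with a range from -0.07 to 0.76. No complex I subunit was lower by as much as 0.32. The summed linear level of the 31 probe sets was 3192 in WT and 4249 in Nlrp6-/-, a ratio of 1.33.

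The catalytic core of complex I carries the flavin and the iron-sulfur clusters that lead electrons to ubiquinone. Its 6 measured members had a median difference of 0.19 and formed a higher and a level set. Ndufv2, an iron-sulfur subunit of the NADH-oxidising module, had a level of 5.98 in WT and of 6.49 in Nlrp6-/-, a log2 difference of 0.51. Ndufs7 was at 5.79 and 6.26, and Ndufs8 at 6.71 and 7.08, differences of 0.46 and 0.37. Both hold iron-sulfur clusters on the path to the ubiquinone site. Ndufv1, which binds NADH and the flavin, was at 5.37 and 5.39. Ndufs3 was at 4.88 and 4.89, and Ndufs1, the largest core subunit, at 5.34 and 5.27. For these 3 the arrays differed by less than the SD of the silent receptor genes.

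The accessory subunits surround this core and stabilise the assembled complex. Outside the distal membrane arm, 15 of 17 were higher and 9 reached 0.32, 88.2% and 52.9% against backgrounds of 50.7% and 16.9%. Their median was 0.47. Ndufa3, a small membrane protein, showed the highest difference of all members, from 8.06 in WT to 8.82 in Nlrp6-/-, which is 0.76 or 1.70-fold. Ndufa6, which belongs to the LYR protein family, was at 7.66 and 8.35, a log2 difference of 0.69. Ndufa7 was at 5.44 and 6.11, and Ndufa1, an X-linked subunit needed for assembly, at 7.98 and 8.63, differences of 0.67 and 0.66. Ndufc2 was at 6.93 and 7.52, a log2 difference of 0.59. These 5 were the ones past 1.5-fold. Ndufa5 (0.55), Ndufc1 (0.54), Ndufa12 (0.48) and Ndufa8 (0.47) were past 0.32 but not 1.5-fold.

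Smaller differences were seen for Ndufs4, whose loss causes a Leigh syndrome-like disease in mice, at 7.27 and 7.58. Ndufa9, Ndufa2, Ndufa11, Ndufs5 and Ndufv3 differed by 0.28, 0.28, 0.24, 0.20 and 0.14. Against the trend, Ndufa13, also known as the cell death regulator GRIM-19, was at 7.04 and 7.01. Ndufa10 was at 6.76 and 6.73. Neither of the last 2 genes differed by more than 0.04 between the arrays.

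The Ndufb subunits lie in the distal part of the membrane arm, far from the ubiquinone site. Of the 8 measured, 7 were higher and 5 reached 0.32, 87.5% and 62.5% against backgrounds of 50.7% and 16.9%. Their median was 0.33. Ndufb6 had a level of 5.25 in WT and of 5.86 in Nlrp6-/-, and Ndufb8 at 5.24 and 5.83, differences of 0.61 and 0.59. Ndufb9 (0.47), Ndufb5 (0.33) and Ndufb3 (0.33) followed, then Ndufb10 (0.31) and Ndufb11 (0.13). Only Ndufb7 was lower, from 7.27 to 7.20.

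Complex II, the succinate dehydrogenase, is also an enzyme of the tricarboxylic acid cycle and has 4 subunits, all measured. Sdha, the flavoprotein that oxidises succinate, had a level of 7.12 in WT and of 7.07 in Nlrp6-/-. Sdhb, its iron-sulfur partner, was at 5.47 and 5.84, a log2 difference of 0.37. The membrane anchors Sdhc and Sdhd were at 4.43 and 4.59, and at 5.67 and 6.09, differences of 0.16 and 0.42. Sdhb and Sdhd were thus higher by at least 0.32, whereas Sdha and Sdhc differed by less than the SD of the silent receptor genes.

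Complex III, the cytochrome bc1 complex, was the one complex in which all measured members, 8 of 8, were higher, against a background of 50.7%. Of its 8 members, 6 were higher by at least 0.32, 75% against 16.9%. Its median difference was 0.45, with a range from 0.22 to 0.69. Its catalytic members are the Rieske iron-sulfur protein Uqcrfs1, at 4.90 in WT and 5.36 in Nlrp6-/-, and cytochrome c1, Cyc1, at 6.04 and 6.57. These differed by 0.46 and 0.53. The core proteins Uqcrc2 and Uqcrc1, which face the matrix, differed by 0.56 and 0.22. Uqcrc2 was at 6.67 and 7.23, and Uqcrc1 at 6.58 and 6.80.

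Among the small subunits of complex III, Uqcrb, which takes part in ubiquinone binding, had a level of 7.65 in WT and of 8.34 in Nlrp6-/-. Its difference of 0.69 was the only one of the complex past 1.5-fold. Uqcrq, also near the ubiquinone site, was at 7.09 and 7.53. The hinge protein Uqcrh, which helps cytochrome c dock, was at 7.41 and 7.76, and Uqcr11 was at 5.24 and 5.49. These 3 differed by 0.44, 0.35 and 0.25. Cytochrome c itself, the carrier between complexes III and IV and a trigger of apoptosis when released, was measured by Cycs at 8.40 and 8.75, a log2 difference of 0.34.

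Complex IV, cytochrome c oxidase, was divided. It had 18 members, of which 13 were measured, with a median of 0.00. Of the 13, 7 were higher, 53.8% against 50.7% of all measured genes, and 5 by at least 0.32, 38.5% against 16.9%. Ndufa4, named for complex I but known as a complex IV subunit, had a level of 8.24 in WT and of 8.97 in Nlrp6-/-, a log2 difference of 0.73. Cox7b, an X-linked subunit, was at 8.43 and 9.13, a log2 difference of 0.69. Both were past 1.5-fold. Cox5a, at 8.76 and 9.23, Cox7a2, at 8.51 and 8.87, and Cox8a, at 8.46 and 8.79, differed by 0.46, 0.35 and 0.33. Cox6b1, which lies on the side where cytochrome c binds, was at 8.50 and 8.76.

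A second set of complex IV subunits was level or lower. Cox4i1, the regulatory subunit that binds adenine nucleotides, was at 9.44 on both arrays. Cox6a1 was at 9.66 and 9.62. Cox5b, the zinc-binding subunit, was at 7.14 and 6.99, and Cox7c at 5.42 and 5.18, differences of -0.16 and -0.24. Cox7a2l, which joins complexes III and IV into supercomplexes and is shortened in C57BL/6 mice, was at 6.13 and 6.08. Among the 10 ubiquitous subunits alone, Ndufa4 included, 7 were higher, 70% against 50.7% of all measured genes, and the median was 0.29. With a stricter floor, which left out 2 dim isoforms, the median of the complex was 0.25.

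The 7 isoforms of complex IV that are restricted to muscle, lung, testis or other tissues were at or below the limit of detection. Cox4i2, Cox7a1, Cox7b2, Cox8b and Cox8c were below the floor on both arrays. Cox6a2, the heart and muscle form, had a level of 3.51 in WT and of 3.49 in Nlrp6-/-, and Cox6b2, the testis form, at 3.57 and 3.55. Both were just above the floor and differed by less than 0.03. The complex IV median of 0.00 includes Cox6a2 and Cox6b2, whereas the 10 ubiquitous subunits alone gave 0.29.

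Complex V, the ATP synthase, had 17 members, 16 of them measured. Of the 16, 10 were higher, 62.5% against 50.7% of all measured genes, and 4 by at least 0.32, 25% against 16.9%. The median was 0.18, or 0.12 with the 2 members seen above the floor on 1 array only set to their bounds. In its catalytic head and central stalk 0 of 5 members were apart by 0.32. Their median was -0.03, with members on both sides of 0. The α subunit gene Atp5a1 had a level of 8.53 in WT and of 8.50 in Nlrp6-/-, and the β subunit gene Atp5b at 9.52 and 9.45. The γ subunit gene Atp5c1 was at 4.51 and 4.33, a log2 difference of -0.18. The δ and ε subunit genes Atp5d and Atp5e were higher by 0.30 and 0.27.

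The ring of c subunits, which turns as protons pass, is encoded by Atp5g1, Atp5g2 and Atp5g3. All encode the same mature protein. Atp5g3 had a level of 7.97 in WT and of 8.47 in Nlrp6-/-, a log2 difference of 0.50, while Atp5g2 was at 8.69 and 8.79. Atp5g1 was at 2.69 and 3.25, barely above the floor in Nlrp6-/- only, so no difference is given. In the peripheral stalk, which holds the head still, Atp5pb was at 7.05 and 7.70, the only complex V member past 1.5-fold, with a difference of 0.65. Atp5h and Atp5j, of the same stalk, differed by 0.13 and 0.08. Atp5o, which encodes the stalk's oligomycin-sensitivity protein, was below the floor on both arrays, a statement about its probe set alone.

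The small membrane subunits of complex V help the synthase form dimers, and they went both ways. Atp5mpl had a level of 8.51 in WT and of 8.99 in Nlrp6-/-, and Atp5md at 9.40 and 9.85, differences of 0.48 and 0.45. Atp5k was at 9.76 and 9.99, a log2 difference of 0.23. Atp5l, subunit g, was at 10.65 and 10.29. Its difference of -0.36 was the lowest of all measured members. Atp5j2 was at 3.30 and 3.20, above the floor in WT only.

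Several probe sets per gene gave a technical check. Of the 10 members with several, 9 had at least a pair above both floors, and the differences of such probe sets were apart by a median of 0.20. For Cycs the 5 probe sets differed by 0.30 to 0.96, and 2 of them held the same values. All were higher in Nlrp6-/-. For Cox5b the probe sets disagreed in sign, with -0.16 for the one used and 0.53 for the dimmer one. Cox7b had a dim second probe set, at 3.32 and 3.34, that showed no difference. A further 10 probe sets pair a matching symbol with another gene's symbol and name no member, and all 10 were higher in Nlrp6-/-, by a median of 0.29.

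The shift was compared with that of other gene lists. Cytosolic ribosomal proteins, also small and abundantly expressed, had a median of 0.04. Of 57 measured, 5 were higher by at least 0.32, 8.77% against a background of 16.9%. Mitochondrial ribosomal proteins, which translate the subunits encoded in mitochondrial DNA, had a median of 0.32, or 0.29 with dim levels set to the floor. Of 64 measured, 30 were higher by at least 0.32 and 1 lower, 46.9% and 1.56% against 16.9% and 13.2%. Over the 847 genes with a mean level of 8 or more, 13.2% were higher by at least 0.32, while 12 of the 24 members at such levels were. The 7 members at a mean level of 9 or more had a median of 0.00, and 4 of them were higher. For members above both floors, the median below a mean level of 5 was 0.08. From 5 to 6, 6 to 7, 7 to 8 and 8 to 9 it was 0.33, 0.42, 0.34 and 0.35. The cumulative distributions show the members beside these lists.

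**Figure D3:**
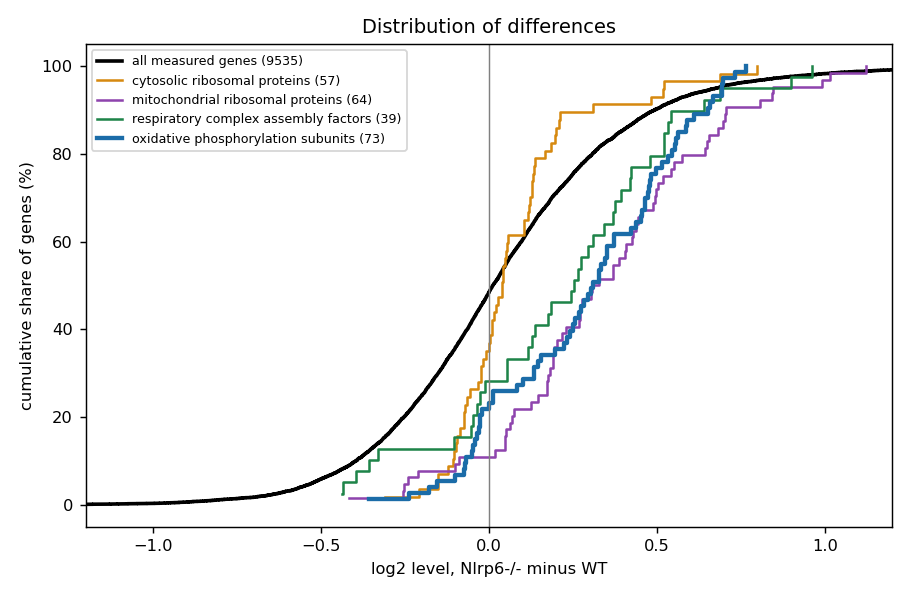
Cumulative share of genes (vertical axis, percent) against the difference of the log2 level, Nlrp6-/- minus WT, cut at 1.2 on either side. Lines are the 73 measured members (thick blue), 57 cytosolic and 64 mitochondrial ribosomal protein genes, 39 assembly factors and all 9535 measured genes (black). The members and the mitochondrial ribosomal proteins lie to the right of all genes over most of the range, with medians of 0.31 and 0.32 against 0.01.

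Other genes of respiration were described from lists. Of 39 measured assembly factors, which build the complexes without staying in them, 28 were higher, 71.8% against 50.7% of all measured genes. Past 0.32, 15 were higher, 38.5% against 16.9%, and 5 lower, 12.8% against 13.2%. Their median was 0.25. Cox20, a chaperone of the complex IV subunit COX2, had a level of 6.26 in WT and of 7.15 in Nlrp6-/-, a log2 difference of 0.90. Cox14 and Cox16, also complex IV factors, differed by 0.69 and 0.64. Timmdc1, an assembly factor of complex I, differed by -0.44. Of 19 measured genes of the tricarboxylic acid cycle and pyruvate entry, 5 were higher by at least 0.32, 26.3% against 16.9%. Their median was 0.12. They were led by Mpc1, a subunit of the mitochondrial pyruvate carrier, at 4.92 and 6.04, and by Suclg2 (0.84), Idh2 (0.68) and Fh1 (0.65). Citrate synthase, Cs, was at 7.26 and 7.32.

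Carriers and import proteins of the mitochondrial membranes had a median of 0.10. Of 23 measured, 7 reached 0.32 in the higher direction, 30.4% against a background of 16.9%. Among them were Tomm20, an import receptor of the outer membrane, by 0.60, and the ADP/ATP carrier gene Slc25a4 by 0.55, Timm13 by 0.54 and Timm8b by 0.53. Ubiquinone synthesis genes, electron-transfer flavoproteins and other partners had a median of 0.17. Of 16 measured, 3 were higher by at least 0.32 and 1 lower, 18.8% and 6.25% against backgrounds of 16.9% and 13.2%. Higd2a, a factor in supercomplex formation, differed by 0.67, Coq8b by -0.61, Coq10b by 0.53 and Etfa by 0.43.

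Regulators of mitochondrial biogenesis had a median of 0.04. Of 15 measured, 4 were higher by at least 0.32 and 1 was lower, or 26.7% and 6.67%, where all measured genes gave 16.9% and 13.2%. Nrf1 had a level of 5.51 in WT and of 5.34 in Nlrp6-/-, and Yy1 at 7.14 and 6.89. The GABP subunit genes Gabpa and Gabpb1 differed by 0.48 and 0.38. Polg2, a subunit of the mitochondrial DNA polymerase, differed by 0.52, and Hcfc1 by -0.40. The coactivator genes Ppargc1a and Ppargc1b were below the floor on both arrays.

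Other energy and proton-pumping genes stood beside these without a common direction. Of 13 measured glycolysis genes, 1 was higher by at least 0.32 and 2 lower, 7.69% and 15.4% against backgrounds of 16.9% and 13.2%. Their median was -0.02. Among them Pfkfb3, which makes an activator of glycolysis, differed by -0.51, the glucose transporter gene Slc2a1 by 0.45, Hk3 by -0.44 and Pgam1 by 0.3204, just under the threshold. Of 14 measured genes of the V-type proton pump, which acidifies lysosomes, 4 were higher by at least 0.32 and 2 lower. These shares of 28.6% and 14.3% stood against backgrounds of 16.9% and 13.2%. The pump's median was -0.03. Its Atp6v1a, a catalytic subunit, differed by -0.78, and Atp6v0a1 by 0.58, Atp6v0e by 0.48 and Atp6v1g1 by 0.44.

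Markers of cell types were described on the same arrays. On the Nlrp6-/- array all 15 measured epithelial markers were higher, by a median of 0.99, where 50.7% of all measured genes were higher. Of the 15, 11 were above both floors. The rest passed the floor in Nlrp6-/- only, so their direction was fixed by the filter. The summed linear level of the 20 epithelial markers was 373 in WT and 811 in Nlrp6-/-. Epcam was at 4.71 and 5.74, whereas Krt20, Cdx1, Cdx2, Slc26a3 and Fabp2 were below both floors. B and plasma cell markers were higher in 9 of 9, with 8 above both floors and the other above the floor in Nlrp6-/- only. The summed level of all 11 was 1047 and 1748, and the brightest of them, Jchain, was at 9.22 and 10.09. Cd79a, a part of the B cell receptor, was at 4.62 and 5.36, Cd79b at 4.82 and 4.97, and the plasma cell gene Mzb1 at 5.22 and 6.84. Ms4a1 and Pax5, also B cell genes, were below both floors. Neutrophil markers were higher in 6 of 8, with sums over all 15 of 782 and 1059. Of the 8, 6 were above both floors, and the others passed the floor in Nlrp6-/- only, which fixes their direction. S100a8, S100a9 and Lcn2 differed by 1.16, 1.03 and 0.87, and Retnlg was at 3.23 and 5.21, above the floor in Nlrp6-/- only. The 2 lower markers were Csf3r, the brightest of the list, at 8.25 and 8.20, and Mmp8, at 7.09 and 6.92. Mpo, Elane, Ltf, Camp, Ngp, Mmp9 and Padi4 were below both floors.

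Stromal, endothelial and muscle markers were higher in 12 of 17, or 70.6%, against 50.7% of all measured genes. Their median was 0.19, with 6 higher by at least 0.32 and 2 lower, 35.3% and 11.8% against 16.9% and 13.2%. The sums over all 20 were 871 and 1483. Mgp, Col1a2 and Lum differed by 1.45, 1.19 and 1.18, whereas Cnn1 and Cdh5 differed by -0.51 and -0.39. Vwf, Ckm and Myl1 were below both floors. T and NK cell markers were higher in 6 of 8, with a median of 0.21 and sums over all 12 of 166 and 200. Of the 8, 6 were above both floors, and the others passed the floor in Nlrp6-/- only, which fixes their direction. Gzma was at 2.88 and 4.61, above the floor in Nlrp6-/- only, and Cd3d differed by 0.46. The 2 lower markers, Cd3e and Cd2, differed by -0.23 and -0.20. Cd4, Klrb1c, Ncr1 and Prf1 were below both floors. Monocyte markers had sums over all 15 of 7973 and 7800 and a median of -0.01. Of 14 measured, 3 were higher by at least 0.32 and 2 lower, or 21.4% and 14.3%, where all measured genes gave 16.9% and 13.2%. Among them F13a1, Fcgr1 and Ms4a4c differed by 1.06, 0.88 and 0.57, and Lyz1 by -0.63. Macrophage markers had sums over all 11 of 1328 and 1247, and dendritic cell markers, also over all 11, of 677 and 660. The summed level of the 73 measured members was 15920 in WT and 18940 in Nlrp6-/-. The part of other cells in the members' difference was not tested. In sorted bulk RNA, a different share of cells of a type and a different RNA content per cell cannot be told apart.

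**Figure D4:**
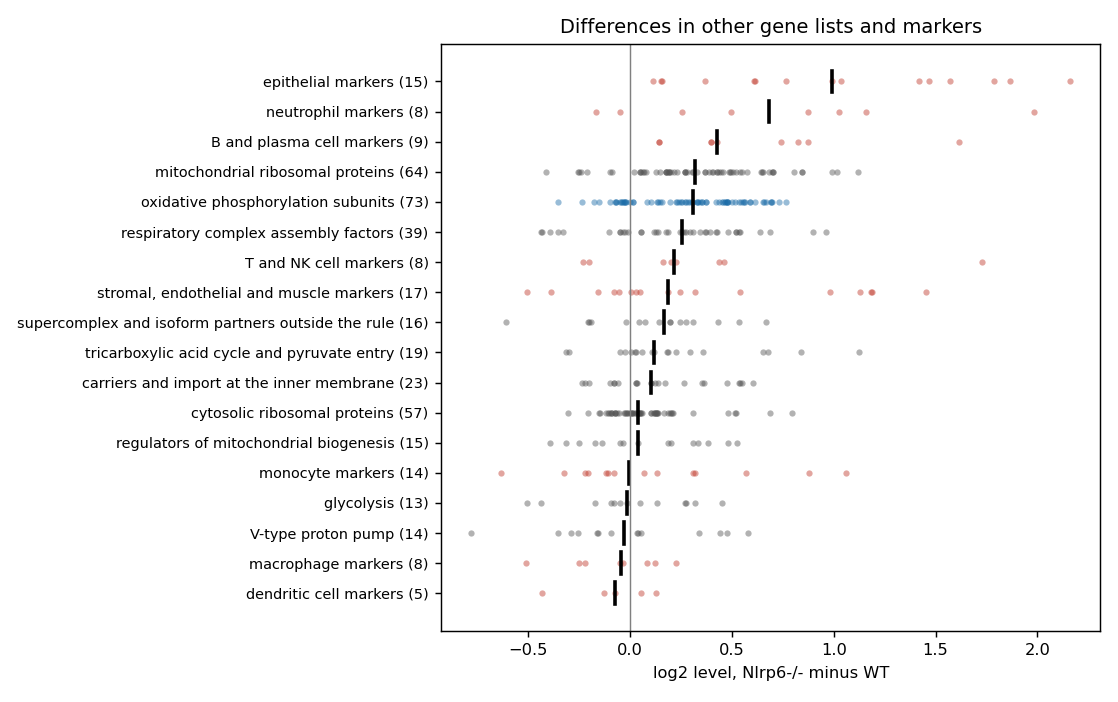
Difference of the log2 level, Nlrp6-/- minus WT, for every measured gene of each list (points, with the number of genes in brackets) and the median of the list (black bar). Blue is oxidative phosphorylation, red are cell type markers and grey are other lists. The subunits' median of 0.31 lies close to that of mitochondrial ribosomal proteins, below that of epithelial markers at 0.99 and above glycolysis at -0.02.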

How the data were processed

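RNA of sorted colon monocytes was measured on 2 arrays, grouped by the genotype label. Per the labels' protocols, 10 ng of RNA was amplified, labelled with biotin and hybridised. The deposited table holds log2 levels, which the authors computed in R 2.15.1 with the oligo package, by the method called robust multiarray average (RMA). RMA subtracts background, equalises the arrays' distributions and summarises probes, so a shift of all transcripts cannot be seen. The set of arrays that entered that normalization is not stated in the labels.

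Genes were named from the platform annotation: of 41345 probe sets, 23525 had 1 symbol, 1810 several and 16010 none. All 79 members had an identifier in the RefSeq gene table of GRCm38.p6. The brightest probe set stood for a gene. Where only 1 level was above the floor, the dim level was raised to its floor for counts, whereas medians used measured differences unless bounds are named. The members, lists, floor and thresholds were chosen with earlier results of these data known.

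Named were members at least 1.5-fold apart, the highest, lowest and brightest 3 per complex, core subunits and restricted isoforms, and up to 4 genes per other list. Nrf1, Yy1, Cs, Timmdc1, Epcam, Cd79a, Cd79b, Cnn1, Cdh5, Csf3r, Mmp8, the sort markers and undetected genes were named outside this rule. Python 3.11.15, pandas 2.3.3 and statsmodels 0.14.6 were used, and the calculations were tested on simulated data. With 1 array for each genotype, precision is limited by that number. The NRF1 and YY1 letters searched in promoters replaced longer ones after the counts with the longer letters had been seen; the counts differed between the versions, and those with the longer letters are not given. Alternatives were other normalizations (median, quantile, loess with a span of 0.3), floors and probe sets.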

Additional observations from a re-analysis of the deposited data

How the results depend on the processing

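Of 121 values of the members as a group under alternatives, 120 moved by less than the SD of the silent receptor genes or, for counts, by less than 1.5 times. The exception was the complex IV median, 0.25 with a stricter floor, the receptors' 99th percentile, which left out Cox6a2 and Cox6b2. The median over all members ran from 0.28 to 0.33, the number higher by at least 0.32 from 32 to 37 and at least 1.5-fold higher from 8 to 11. Of 571 values of single members 9 moved by more than that SD, among them Cox7b at 0.02 and Cox5b at 0.53 with the dimmest probe set. The epithelial median was 0.61 without a floor and 1.44 with the stricter one. Counting Ndufa4 with complex I, or leaving out Cox5b, was chosen after the data were seen. No paired analysis was possible because each genotype has 1 array.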
